A study of Mus musculus with 8 samples.

Results

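The early secretory pathway carries newly made proteins into the endoplasmic reticulum (ER) and on to the Golgi apparatus, and the genes of its transport machinery were compared here between normal mouse prostate and prostate that carried an oncogene. The members were all probe sets annotated to a single gene symbol of the signal recognition particle or the Sec61, Sec62 and Sec63 translocon. The translocon-associated protein complex, signal peptidase and the COPII and COPI vesicle coats were also covered. So were the p24, L-type lectin and KDEL receptors, the Sec22 proteins (marked Sec22 SNARE in the figures) and the TRAPP tether. Members were chosen and grouped by symbol and not by measured value, although earlier results of these data were known when the choice was made. This gave 105 probe sets for 63 genes, out of 20380 probe sets for 12393 genes on the array. A further 15 probe sets named such a gene together with another symbol, among them those of the Srp54 genes, and were left out. No filter on low values was applied, so all 63 genes were tested.

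A secretory protein is recognised by its signal peptide as it leaves the ribosome. The signal recognition particle brings the ribosome to the ER membrane, the Sec61 channel lets the chain through, and signal peptidase removes the signal. COPII coats then bud vesicles from ER exit sites towards the Golgi, while COPI coats return escaped ER proteins and recycling receptors. The ventral prostate is a gland whose luminal cells export large amounts of a few secreted proteins.

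RNA came from the ventral prostate of FVB males aged 8 weeks, hybridised as 4 arrays from wild-type mice and 4 from mice carrying the middle T antigen of polyoma virus as a transgene (MT). The middle T protein sits at membranes, where it activates Src-family kinases, and the study set normal prostate against the cancer it induces. The labels name no promoter for the transgene, nor do they state whether each array is a separate animal, so p-values measure the spread between these arrays, which may be technical. As a check of the label prostate, the secretory marker Pbsn, probasin, read 13.28 ± 0.38 in wild type and 9.12 ± 0.68 in MT. The lobe named in the label was not tested. All levels are log2 values from the RMA method, each difference is MT minus wild type with its standard error from limma (n = 4 arrays a group), and a gene passed at an adjusted p under 0.05.

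Most of the machinery was lower in MT. Of the 63 genes, 42 fell, 4 rose and 17 did not pass, where 21.3% of all 12393 genes were lower and 19.7% higher. The median difference of the 63 was -0.45, against -0.01 over all genes. On 44 of the genes every MT array read below every wild-type array, which held for 20.4% of all genes, and on 5 every MT array read above, against 19.7%. A fall of at least 2-fold was seen for 7 members, Copz2, Kdelr3, Sec13, Spcs3, Lman1, Sec22b and Sec24d, while 2.25% of all genes fell that far. None of the 4 rises reached 2-fold. Of the 63, 55 had a mean level at or above that of the median gene, and 41 of these 55 fell, where 28.9% of all genes at such levels were lower. The other 8, below the median level, gave 1 fall and 2 rises.

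Probe sets were also tested one by one among all 20380, of which 20.1% were lower and 18.3% higher. Of the members' 105, 67 were lower, 3 higher and 35 did not pass. Of the 25 genes with several probe sets, 10 had all of them lower, 11 had some lower and some that did not pass, 4 had none lower, and 0 had calls in both directions.

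The shift was alike on the 4 MT arrays. Values were set against the wild-type mean of each gene, which by itself centres the wild-type arrays near 0. The median of the 63 stayed within -0.05 to 0.06 in wild type and was -0.45, -0.42, -0.48 and -0.49 in MT arrays 1 to 4. The median SD of a member was 0.10 over the wild-type arrays and 0.07 over the MT arrays, so that the typical fall was several times the spread within a group.

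**Figure D1:**
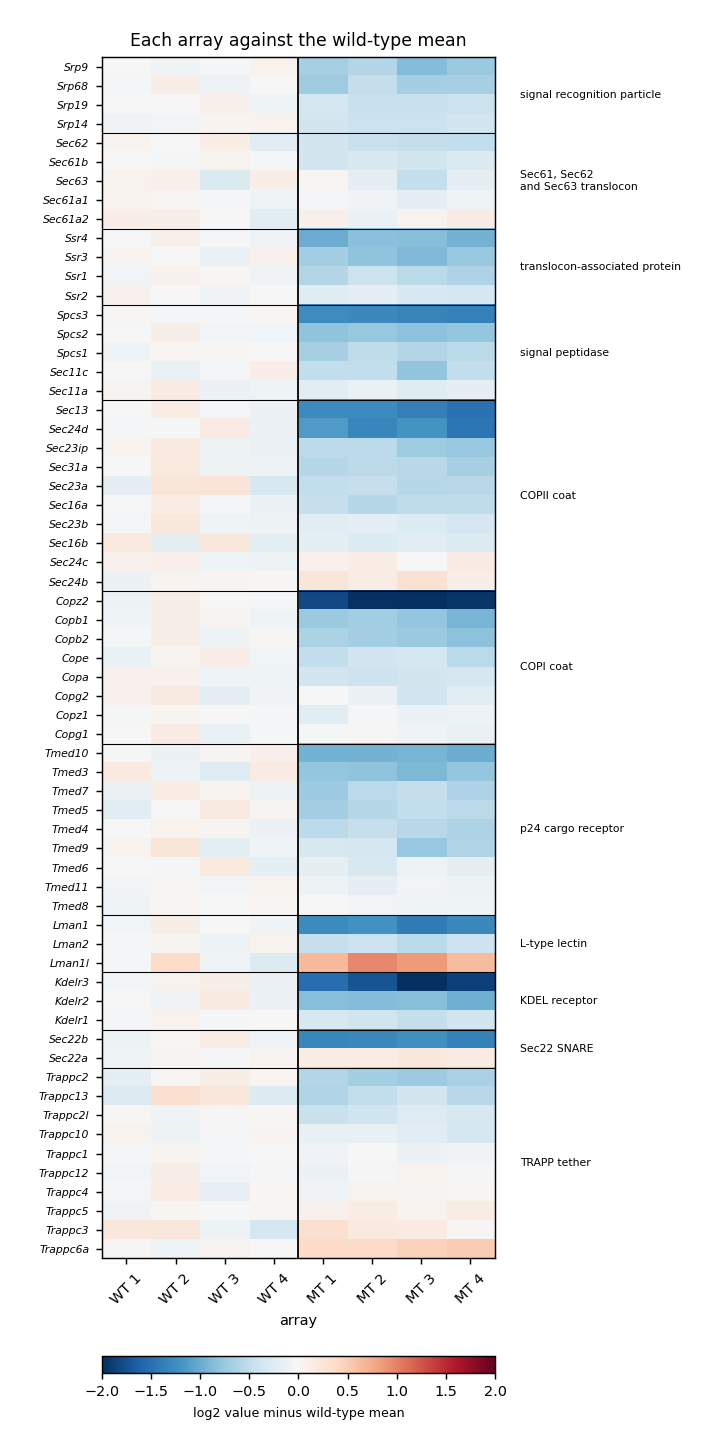
Heat map of 63 genes (rows, grouped by complex) on 8 arrays (columns, WT wild type). Colour gives the log2 value minus the gene's wild-type mean, blue lower and red higher, cut at 2 on either side. The 4 MT columns are blue in most rows, darkest for Copz2 and Kdelr3, and red for Lman1l and Trappc6a.

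Markers of several cell types differed between the groups on the same arrays, where 21.3% of all genes were lower and 19.7% higher. Of 8 listed markers of the luminal secretory cell, 4 were measured and all 4 fell, with a median of -2.89 and a mean level of 12.76 to 13.10 on the wild-type arrays and 9.56 to 10.42 on the MT arrays. All 8 smooth muscle markers (median -1.08, mean level 9.54 to 10.33 in wild type and 8.45 to 9.33 in MT) and all 6 fibroblast markers (median -1.02, 8.86 to 9.53 and 7.99 to 8.59) fell too. All 7 luminal keratin and adhesion markers rose (median 0.95, 10.95 to 11.14 and 11.91 to 12.05). Of 7 measured plasma and B cell markers, 2 rose, Jchain (2.97 ± 0.25) and Sdc1 (1.29 ± 0.10). The other 5 did not pass, with differences from -0.10 for Tnfrsf17 to 0.74 for Cd79b. The mean level of this list, which includes the 2 rises, was 5.17 to 5.39 in wild type and 5.97 to 6.50 in MT. Basal epithelial markers fell for 4 of 5 (7.42 to 7.99 and 6.93 to 7.06), macrophage markers rose for 3 of 7 and fell for 1 (6.86 to 7.58 and 7.68 to 7.89), and endothelial markers fell for 1 of 5 (4.92 to 5.36 and 5.03 to 5.11). Fewer cells of a type and less RNA per cell cannot be told apart in such bulk samples, and the part of cell make-up in the members' falls was not tested. The 3' minus 5' signal of the Gapdh control probe sets, a measure of RNA quality, was 0.54 to 0.92 in wild type and 0.45 to 0.64 in MT (two-sided exact permutation p = 0.0857), and that of Actb was 0.71 to 1.05 and 0.57 to 0.85 (exact permutation p = 0.114).

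**Figure D2:**
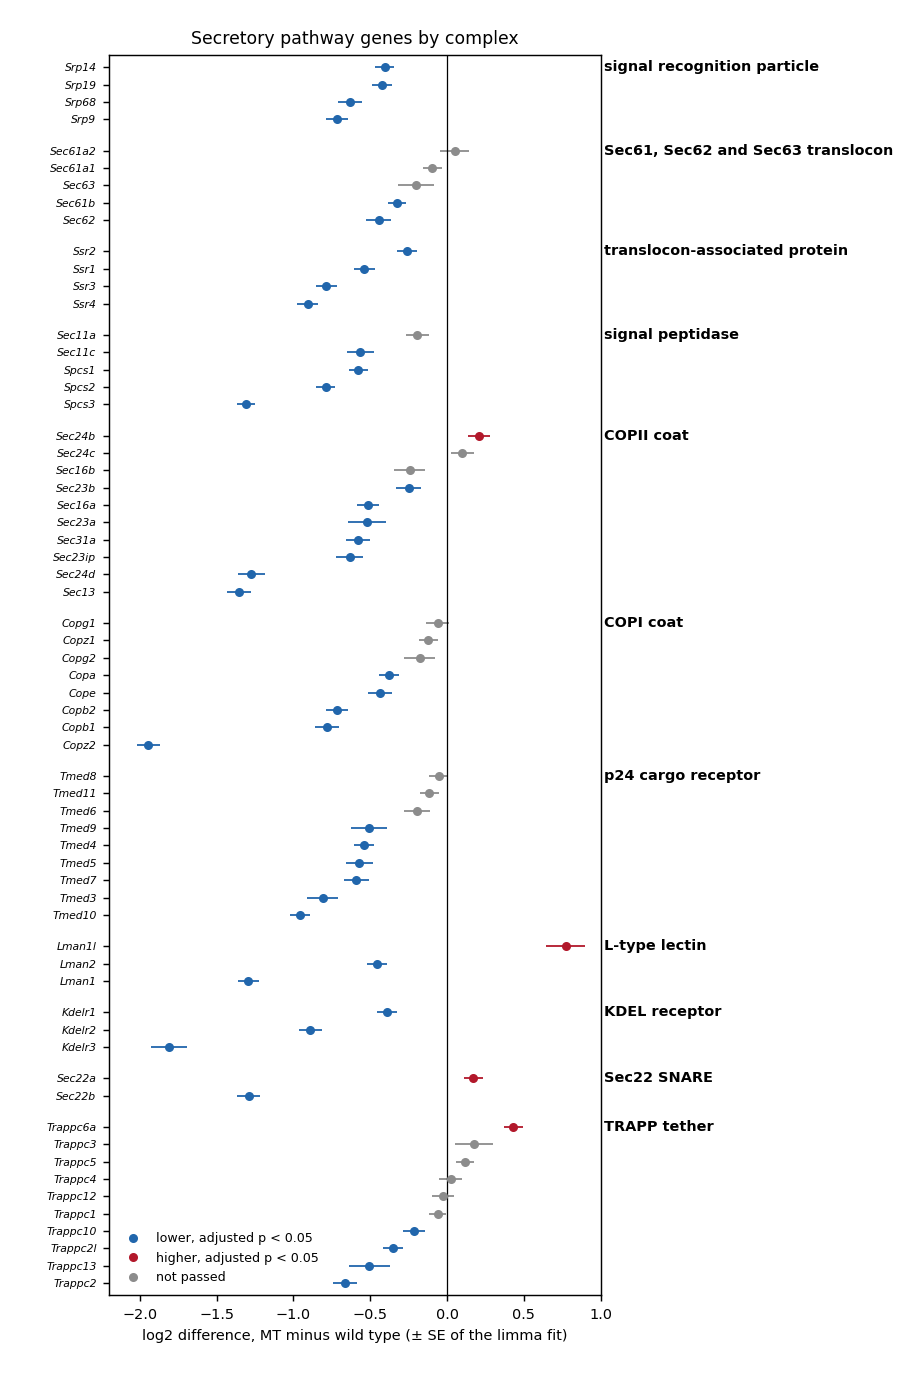
Difference between MT and wild type for each of the 63 genes, grouped by complex. Points are log2 differences on the x axis, bars are standard errors of the limma fit, blue and red mark falls and rises past an adjusted p of 0.05, and grey marks genes that did not pass. The points of the signal recognition particle, the translocon-associated protein and the KDEL receptors are all blue, while those of the TRAPP tether straddle 0.

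RNA for the particle that brings ribosomes to the ER was lower for each subunit gene measured. All 4 measured genes for protein subunits of the signal recognition particle fell, by a median of 0.53 on the log2 scale. Srp9, which with Srp14 forms the domain that pauses translation, read 10.47, 10.39, 10.44 and 10.53 in wild type and 9.79, 9.87, 9.59 and 9.71 in MT. The groups did not overlap, and the difference was -0.72 ± 0.07 (adjusted p = 1.42e-05). Srp68, part of the particle's RNA-bound core, read 10.28, 10.45, 10.21 and 10.32 in wild type and 9.60, 9.84, 9.64 and 9.65 in MT. Every MT array again read below every wild-type array (difference -0.63 ± 0.08, adjusted p = 5.89e-05). Srp19, an assembly factor that binds the particle's RNA, read 9.52, 9.52, 9.63 and 9.44 in wild type and 9.17, 9.08, 9.07 and 9.09 in MT (difference -0.42 ± 0.06, adjusted p = 0.000289), again without overlap. Srp14 differed by -0.41 ± 0.06, and its 4 probe sets all fell, from -0.58 to -0.41.

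In the channel and its partners, 2 of 5 genes fell and 3 did not pass. Sec61b, the small beta subunit of the channel, read 12.10, 12.06, 12.16 and 12.06 in wild type and 11.73, 11.80, 11.73 and 11.81 in MT, a tight and separate pair of groups (-0.33 ± 0.06, adjusted p = 0.000991). Sec62, which assists chains that enter after their synthesis, read 10.53, 10.46, 10.59 and 10.24 in wild type and 10.09, 10.00, 9.97 and 9.96 in MT. Wild-type array 4 was the lowest of its group and still lay above the highest MT array (-0.45 ± 0.08, adjusted p = 0.00108). Of its 4 probe sets 3 fell and the dimmest gave 0.07. Sec61a1, the pore subunit, had a difference of -0.10 ± 0.06 (adjusted p = 0.264) and its copy Sec61a2 of 0.05 ± 0.09 (adjusted p = 0.710). The 6 probe sets of Sec61a1 ran from -0.37 to -0.10, and 1 of them passed. With probe sets of the unique type alone (names without a suffix for probes shared between transcripts), Sec61a1 fell (-0.35, adjusted p = 0.00249). For Sec63, which recruits the chaperone BiP to the channel, the call turned on the probe set: the brightest gave -0.20 ± 0.12 (adjusted p = 0.197) and its 4 probe sets ran from -1.12 to -0.16. Sec63 also passed with the replicate number as a block (adjusted p = 0.0483), as the mean of its probe sets (-0.46, adjusted p = 0.000845) and without wild-type array 3 (-0.30, adjusted p = 0.0498).

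The translocon-associated protein, a complex that sits beside the channel and helps some chains enter, fell in all 4 subunits (median -0.66). Ssr4, the delta subunit, read 11.83, 11.92, 11.77 and 11.75 in wild type and 10.83, 10.98, 10.96 and 10.86 in MT, close to a log2 unit apart (-0.91 ± 0.07, adjusted p = 1.30e-06). That value rests on 1 of its 3 probe sets, since the other 2 gave -0.18 and 0.07, and with probe sets of the unique type alone it did not pass (-0.18, adjusted p = 0.164). Ssr3, the gamma subunit with a single probe set, read 11.11, 11.04, 10.93 and 11.14 in wild type and 10.37, 10.24, 10.17 and 10.30 in MT. Its groups were 0.56 apart at their closest (-0.79 ± 0.07, adjusted p = 6.50e-06). Ssr1, the alpha subunit, read 10.50, 10.65, 10.59 and 10.49 in wild type and 9.97, 10.14, 10.03 and 9.95 in MT (-0.54 ± 0.07, adjusted p = 8.29e-05). Of its 3 probe sets 2 fell and the third did not pass (0.12). Ssr2, the beta subunit, moved least, by -0.26 ± 0.06 (adjusted p = 0.00657).

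Signal peptidase held one of the largest falls. Of its 5 genes 4 fell, and on all 5 every MT array read below every wild-type array. Spcs3, an accessory subunit that the enzyme requires, read 10.93, 10.88, 10.88 and 10.95 in wild type and 9.65, 9.63, 9.57 and 9.56 in MT. The values spanned 0.08 in wild type and 0.10 in MT from lowest to highest, and the fall was 2.48-fold (-1.31 ± 0.06, adjusted p = 3.92e-08). Spcs2 read 10.94, 11.06, 10.90 and 10.90 in wild type and 10.14, 10.19, 10.13 and 10.18 in MT (-0.79 ± 0.06, adjusted p = 2.12e-06), and its second probe set gave -0.79 as well. Spcs1, a small membrane subunit, read 11.23, 11.33, 11.32 and 11.31 in wild type and 10.63, 10.79, 10.70 and 10.75 in MT. Here too the groups stood apart (-0.58 ± 0.06, adjusted p = 2.54e-05). The enzyme has 2 alternative catalytic subunits, and they differed in their calls: Sec11c fell (-0.57 ± 0.09, adjusted p = 0.000355), while Sec11a did not pass (-0.19 ± 0.08, adjusted p = 0.0623). The adjusted p of Sec11a was 0.0321 without wild-type array 3 and 0.0399 to 0.0478 under other settings of the fit.

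**Figure D3:**
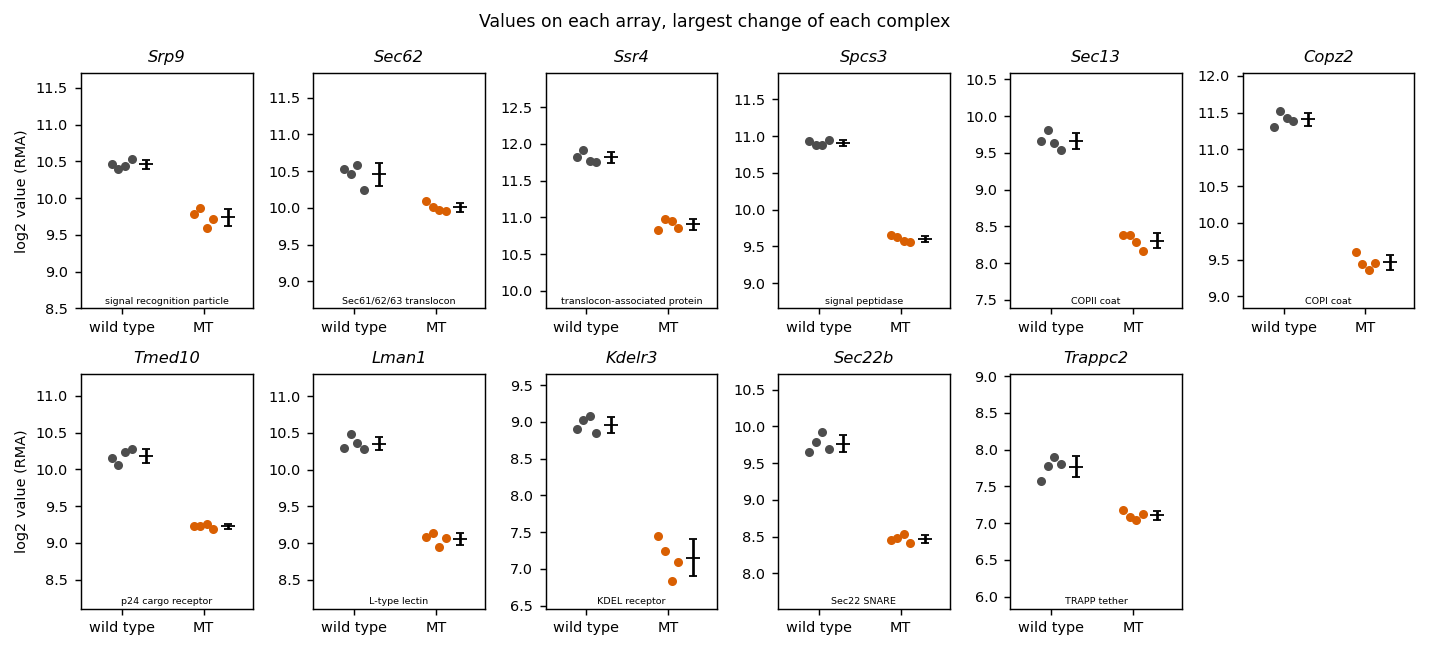
Log2 values on each of the 4 wild-type (grey) and 4 MT (orange) arrays for the gene with the largest change in each of the 11 complexes. The black bar beside each group is its mean ± SD, and every panel spans the same number of log2 units. In all 11 panels the MT points lie below the wild-type points.

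The COPII coat fell in 7 of its 10 genes and rose in 1. Sec13, which with Sec31a builds the outer cage and is also part of the nuclear pore, read 9.67, 9.81, 9.63 and 9.54 in wild type and 8.38, 8.39, 8.29 and 8.16 in MT. The fall was 2.56-fold (-1.36 ± 0.08, adjusted p = 2.44e-07). Sec31a itself fell by less (-0.58 ± 0.08, adjusted p = 0.000126). Among the Sec24 proteins, which choose the cargo, Sec24d read 9.43, 9.45, 9.63 and 9.36 in wild type and 8.34, 8.16, 8.27 and 8.02 in MT. The groups were far apart (-1.27 ± 0.09, adjusted p = 7.61e-07). Sec24c did not pass (0.10 ± 0.07, adjusted p = 0.312). Sec24b rose slightly (0.21 ± 0.07, adjusted p = 0.0310), a call lost as the mean of its 2 probe sets (0.07, adjusted p = 0.491) and without any of wild-type array 1, MT array 1 or MT array 3 (adjusted p = 0.0826, 0.0775 and 0.0937).

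Sec23 speeds GTP hydrolysis by the GTPase that assembles the coat. Both forms fell, with differences of -0.52 ± 0.12 for Sec23a (adjusted p = 0.00573) and -0.25 ± 0.08 for Sec23b (adjusted p = 0.0271). Wild-type values of Sec23a were uneven, 8.13 and 8.15 on arrays 2 and 3 and 7.70 and 7.57 on arrays 1 and 4, and all 4 lay above the MT range of 7.32 to 7.42. The Sec23b call was lost without any of wild-type array 2, MT array 3 or MT array 4 (adjusted p = 0.0568, 0.0649 and 0.0778). Sec23ip, a phospholipase-like partner of Sec23 at exit sites, read 9.01, 9.14, 8.87 and 8.83 in wild type and 8.44, 8.41, 8.25 and 8.20 in MT, with no overlap (-0.63 ± 0.09, adjusted p = 0.000149). Sec16a, the scaffold of exit sites, fell on both of its probe sets (-0.51 and -0.74). Sec16b, a shorter relative, read low, at 4.15 ± 0.23 in wild type, and did not pass (-0.24 ± 0.10, adjusted p = 0.0779). It passed with the replicate number as a block (adjusted p = 0.0484) and without wild-type array 2 or 4 (adjusted p = 0.0281 and 0.0327).

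The COPI coat held the largest fall of all 63 genes. Copz2, the second form of the small zeta subunit, read 11.30, 11.53, 11.42 and 11.39 in wild type and 9.61, 9.44, 9.35 and 9.46 in MT. The groups were 1.70 apart at their closest, and the fall was 3.85-fold (-1.95 ± 0.08, adjusted p = 1.15e-08). The widely used form Copz1 did not pass (-0.12 ± 0.06, adjusted p = 0.153), although its 4 MT values lay below the 4 wild-type values. Fibroblast and smooth muscle markers fell in the same arrays, for 6 of 6 and 8 of 8 genes, and their part in the Copz2 fall was not tested. Copb1, the beta subunit, read 9.77, 9.98, 9.91 and 9.78 in wild type and 9.12, 9.17, 9.09 and 8.94 in MT (-0.78 ± 0.08, adjusted p = 1.06e-05). Copb2, the beta-prime subunit of the outer layer, read 10.92, 11.08, 10.85 and 10.98 in wild type and 10.32, 10.28, 10.22 and 10.14 in MT. No MT array of either gene reached its wild-type range (Copb2 -0.71 ± 0.07, adjusted p = 1.26e-05). The other outer-layer subunits Copa (-0.38 ± 0.07) and Cope (-0.44 ± 0.08) fell as well, at adjusted p-values of 0.000753 and 0.000856. The gamma subunits did not pass, Copg1 at -0.06 ± 0.08 and Copg2 at -0.18 ± 0.10 (adjusted p = 0.567 and 0.195). Copg1 is another gene where probe sets disagree, since its dimmer probe set fell by 0.65 and their mean passed (-0.36, adjusted p = 0.00106).

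The p24 proteins are membrane receptors that travel in both coats. Of the 9 genes assigned to them here by the Tmed name alone, 6 fell and 3 did not pass. Tmed10, the delta-class member, read 10.15, 10.06, 10.23 and 10.28 in wild type and 9.23, 9.23, 9.25 and 9.18 in MT. The 4 MT arrays lay within 0.07 of each other, nearly a log2 unit below wild type (-0.96 ± 0.07, adjusted p = 8.49e-07). Tmed3, of the gamma class, read 12.24, 11.96, 11.79 and 12.22 in wild type and 11.29, 11.25, 11.15 and 11.29 in MT. The wild-type values spanned 0.45 and stayed above MT (-0.81 ± 0.10, adjusted p = 6.49e-05). Tmed7, also gamma, read 9.45, 9.71, 9.64 and 9.46 in wild type and 8.83, 9.03, 9.09 and 8.95 in MT (-0.59 ± 0.08, adjusted p = 0.000167), although 1 of its 4 probe sets did not pass (0.04). That probe set had a mean of 3.39 over the arrays, within the range of the control probe sets given below. Tmed5, Tmed4 and Tmed9 also fell, with differences of -0.57 ± 0.09, -0.54 ± 0.07 and -0.51 ± 0.12. The 3 that did not pass were the dim ones. Tmed11 (2.98 ± 0.06 in wild type) and Tmed6 (3.19 ± 0.15) lay within the range of 12 control probe sets for bacterial transcripts, 2.57 to 3.90, on every array, so neither was measured above background. Tmed8 (4.45 ± 0.06) lay just above that range. The other 61 members exceeded, on each of the 8 arrays, the highest control of that array. Sec16b on MT arrays 2 and 4 (3.87 on both) still lay below the single highest control value over all 8 arrays, 3.90.

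The cargo receptors with lectin domains split. Lman1, which binds sugar chains on coagulation factors and other cargo at the ER exit, read 10.29, 10.48, 10.37 and 10.28 in wild type and 9.08, 9.14, 8.95 and 9.07 in MT. All 4 of its probe sets fell, from -1.29 to -0.39, and the brightest gave -1.29 ± 0.07 (adjusted p = 1.65e-07). Lman2, a lectin of later stations, read 9.08, 9.18, 9.02 and 9.20 in wild type and 8.67, 8.70, 8.58 and 8.71 in MT and fell by a smaller amount (-0.46 ± 0.07, adjusted p = 0.000205). Lman1l, a relative of Lman1, rose. It read 5.45, 5.84, 5.40 and 5.19 in wild type and 6.12, 6.43, 6.32 and 6.10 in MT, with a difference of 0.77 ± 0.13 (adjusted p = 0.000557), the largest rise among the 63.

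The KDEL receptors return ER chaperones from the Golgi, and all 3 fell. Kdelr3 read 8.90, 9.03, 9.08 and 8.84 in wild type and 7.44, 7.24, 6.84 and 7.09 in MT. The MT arrays spread over 0.60 and lay at least 1.40 below the wild-type arrays, a 3.51-fold fall (-1.81 ± 0.12, adjusted p = 5.00e-07). Kdelr2 read 10.40, 10.33, 10.58 and 10.29 in wild type and 9.55, 9.53, 9.55 and 9.42 in MT (-0.89 ± 0.07, adjusted p = 3.67e-06), without overlap, and its second probe set gave -0.78. Kdelr1 read 10.76, 10.88, 10.78 and 10.81 in wild type and 10.49, 10.41, 10.32 and 10.43 in MT. Its groups were close but did not meet (-0.39 ± 0.06, adjusted p = 0.000460).

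Vesicle fusion and tethering genes went different ways. Sec22b, the SNARE that works between ER and Golgi, read 9.66, 9.79, 9.92 and 9.70 in wild type and 8.46, 8.48, 8.54 and 8.41 in MT. Both probe sets fell, the brighter by 2.45-fold (-1.29 ± 0.07, adjusted p = 1.88e-07) and the other by 0.65 on the log2 scale. Sec22a read 6.08, 6.23, 6.14 and 6.24 in wild type and 6.32, 6.33, 6.38 and 6.34 in MT, a rise of 0.17 ± 0.06 (adjusted p = 0.0463). That call was lost with the replicate number as a block (adjusted p = 0.0672), with another prior (adjusted p = 0.0777) and without any 1 array except wild-type array 2 or 4 (adjusted p = 0.0773 to 0.114). It also missed the threshold among unique-type probe sets (adjusted p = 0.0532).

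The TRAPP complex, which tethers vesicles and activates Rab1, gave 4 falls, 1 rise and 5 genes that did not pass among 10, with a median of -0.04. The share that fell, 40.0%, was above the 21.3% of all genes but the smallest among the complexes together with that of the translocon. Trappc2, a core subunit, read 7.57, 7.78, 7.90 and 7.81 in wild type and 7.18, 7.08, 7.04 and 7.12 in MT (-0.66 ± 0.08, adjusted p = 4.87e-05), and the groups did not overlap. Its paralog Trappc2l also fell (-0.35 ± 0.07, adjusted p = 0.00118). Trappc13 read 6.60, 7.20, 7.10 and 6.60 in wild type and 6.27, 6.39, 6.50 and 6.32 in MT. The wild-type arrays fell into 2 pairs, and the lower pair was just above the highest MT array (-0.51 ± 0.13, adjusted p = 0.0108). Trappc10 differed by -0.22 ± 0.07 (adjusted p = 0.0307), and did not pass when wild-type array 1 or 4 or MT array 3 or 4 was left out (adjusted p = 0.0652 to 0.0951). Trappc6a rose, with readings of 9.07, 8.96, 9.10 and 9.07 in wild type and 9.44, 9.43, 9.51 and 9.55 in MT (0.43 ± 0.06, adjusted p = 0.000214). The 5 others, Trappc1, Trappc3, Trappc4, Trappc5 and Trappc12, had differences from -0.06 to 0.18. For Trappc5 the choice of probe set turned the direction, since the brighter probe set gave 0.12 ± 0.06 and the other fell by 0.40 on the log2 scale.

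Related genes of a complex were also compared within each array. The log2 ratio of 2 related genes on each array was compared between groups for 18 measured pairs out of 26 listed. In 10 pairs the groups did not overlap, which gives the smallest two-sided p that 70 assignments of the arrays allow (exact permutation p = 0.0286). Adjusted over the 18 pairs this was 0.0514, so 0 pairs passed, with 10 at an unadjusted p under 0.05. After this adjustment a pair could pass only if more than 10 of the 18 reached the smallest p. The count that passed therefore cannot tell whether any single pair differed. The widest gaps were between Lman1 and Lman1l (2.07 on the log2 scale), Copz1 and Copz2 (1.82), Sec22a and Sec22b (1.46), Kdelr1 and Kdelr3 (1.42) and Sec24c and Sec24d (1.37). In all 5 the groups stood apart on the 4 arrays of each. Between Kdelr2 and Kdelr3 the gap was 0.92, and between Lman1 and Lman2 it was 0.84. Kdelr1 and Kdelr2 (0.50) and Sec23a and Sec23b (0.27) were also among the 10. The 95% interval for Sec23a minus Sec23b, from the SD over the arrays, was -0.58 to 0.04 and so included 0. Among pairs whose groups overlapped, Sec11a minus Sec11c (0.06 to 0.68) and Trappc2 minus Trappc2l (-0.56 to -0.06) had intervals that left 0 out. The last of the 10 was Tmed3 and Tmed6, for which no gap is given, since Tmed6 was at background and the ratio there follows Tmed3 alone. Pairs whose groups overlapped had gaps from 0.02 for Tmed5 and Tmed7 to 0.37 for Sec11a and Sec11c (exact permutation p = 0.0571 or more). As the mean over probe sets, 15 pairs passed, and without wild-type array 2 or 3 it was 11.

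**Figure D4:**
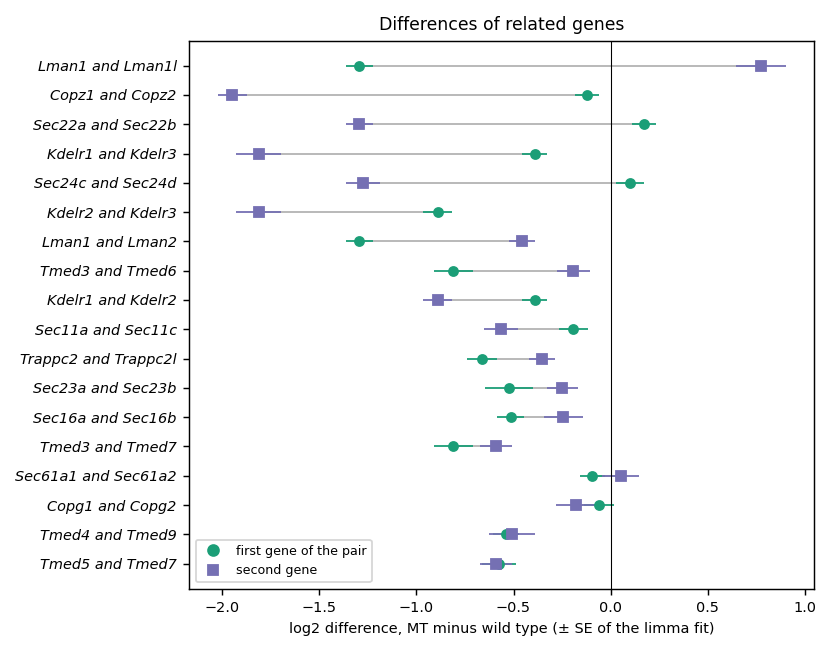
Log2 differences between MT and wild type for both genes of 18 related pairs, ordered by the gap between them. Circles are the first gene named and squares the second, with standard errors of the limma fit. The gap is widest for Lman1 and Lman1l, which moved in opposite directions, with Tmed6 at background, and the symbols coincide for Tmed4 and Tmed9 and for Tmed5 and Tmed7.

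Promoter sequence was examined because so many members fell together. RefSeq windows of 250 bases before to 50 after a start (build GRCm38.p6) were at hand for 51 of the 63 genes. The motif TGACGTGG, which holds the ACGT core bound by CREB-like factors and by Xbp1, was searched on both strands, which also covers its reverse complement CCACGTCA. It was present for 6 of 51 members, 11.8%, against 0.714% of all 27025 genes with such a window and 0.986% of the 9836 other genes tested. The 6 were Copb1, Copb2, Kdelr3, Sec16b, Sec23a and Sec24d, of which 5 fell and Sec16b did not pass. Of the 97 other genes tested that hold the motif, 26 fell (26.8%) and 18 rose, near the 21.3% and 19.7% of all genes. The ER stress response element (ERSE, in which CCAAT is followed after 9 bases by CCACG) and the shorter ERSE-II had no match among the 51, and 0.137% and 0.0444% of all genes hold them. Of the other genes tested that hold ERSE, 11 of 18 fell, and for ERSE-II it was 5 of 8. A match describes the sequence and shows no binding.

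The 6 matches lie close to the start of their RefSeq window, which for 4 of the genes is the first base of the gene. For Sec24d that start lies 2695 bases inside the annotated gene and for Sec16b 63 bases inside, so that both matches lie within the gene as annotated. All but that of Sec16b are shown as 80 bases before and 20 after the start, 5′ to 3′ on the gene's strand, with the match in capitals, so that its place can be compared between genes. The match begins 28 bases before the window's start site in Copb1, 7 in Copb2, 30 in Kdelr3, 44 in Sec16b and 26 in Sec24d, and at base 7 of the transcript in Sec23a. It reads TGACGTGG along the strand of Sec16b, Sec23a and Sec24d, and CCACGTCA along that of the others.
Copb1 (chr7:114254661-114254760, minus strand): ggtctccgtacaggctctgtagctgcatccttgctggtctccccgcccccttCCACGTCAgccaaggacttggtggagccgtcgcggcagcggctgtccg
Copb2 (chr9:98563651-98563750, plus strand): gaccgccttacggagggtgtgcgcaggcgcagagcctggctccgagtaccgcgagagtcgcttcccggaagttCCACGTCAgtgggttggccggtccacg
Kdelr3 (chr15:79516328-79516427, plus strand): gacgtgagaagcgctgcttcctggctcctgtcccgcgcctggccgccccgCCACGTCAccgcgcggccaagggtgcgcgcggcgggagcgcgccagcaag
Sec23a (chr12:59011998-59012097, minus strand): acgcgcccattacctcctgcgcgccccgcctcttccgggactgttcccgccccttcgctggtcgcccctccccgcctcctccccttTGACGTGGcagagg
Sec24d (chr3:123267416-123267515, plus strand): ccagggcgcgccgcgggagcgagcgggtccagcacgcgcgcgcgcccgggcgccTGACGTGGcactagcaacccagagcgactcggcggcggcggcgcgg
Among these, the differences of the 2 COPI subunits were -0.78 ± 0.08 for Copb1 and -0.71 ± 0.07 for Copb2, while the COPII genes ranged from -1.27 ± 0.09 for Sec24d to -0.24 ± 0.10 for Sec16b.

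Genes that work with the members, taken from 7 lists outside the naming rule, were also mostly lower. These lists too were drawn up with earlier results of these data known. Of 90 listed genes 81 were measured, of which 51 were lower, 10 higher and 20 did not pass, with a median of -0.35. Over all genes 21.3% were lower and 19.7% higher, and among genes at or above the median level 28.9% were lower. The counts for each list below are to be read against these shares. Among other translocation genes 6 of 9 fell and 1 rose. Tram1, which lines the channel, fell from 12.19 ± 0.05 to 11.22 ± 0.10, and Srpr, the receptor that docks the signal recognition particle, differed by -0.86 ± 0.06. Dnajc1, an ER co-chaperone, differed by -0.81 ± 0.08. The oligosaccharyltransferase, which adds sugar chains to proteins as they enter, fell in 8 of 10 subunits with no rise. Its largest falls were in Krtcap2 (-1.09 ± 0.06), Magt1 (-0.98 ± 0.07) and Ostc (-0.68 ± 0.07).

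**Figure D5:**
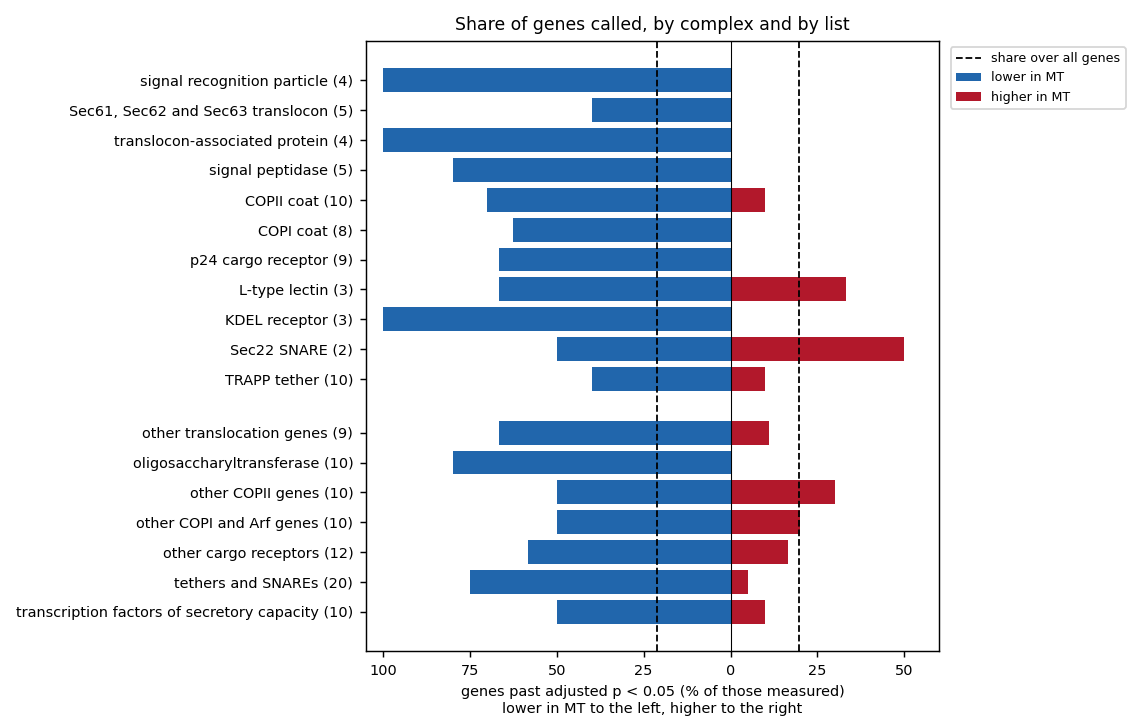
Share of genes lower (blue, to the left) and higher (red, to the right) in MT at an adjusted p under 0.05, for the 11 complexes and for the 7 lists of other pathway genes. The number of genes measured is in parentheses, and dashed lines mark the shares over all genes, 21.3% and 19.7%. Every blue bar passes its dashed line.

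Partners of the coats gave calls in both directions. Other COPII genes fell for 5 of 10 and rose for 3. Sar1a, the GTPase that starts the coat, differed by -1.02 ± 0.08 and its second form Sar1b by -0.66 ± 0.07, while Csnk1d, a kinase that phosphorylates Sec23, rose (0.84 ± 0.06, adjusted p = 1.16e-06). Other COPI and Arf genes fell for 5 of 10 and rose for 2. Arcn1, the delta subunit of the COPI coat that the naming rule does not reach, fell from 10.74 ± 0.09 to 9.98 ± 0.06 (-0.75 ± 0.07). Arfgap3, which ends the Arf cycle on COPI vesicles, and Gbf1, which starts it, differed by -0.92 ± 0.08 and -0.61 ± 0.08.

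Other cargo receptors fell for 7 of 12 and rose for 2. Their largest changes were Cnih1 (-0.82 ± 0.06), which exports growth factors of the EGF family, Yipf5 (-0.73 ± 0.08) and Ergic2 (-0.71 ± 0.11). Tethers and SNAREs fell for 15 of 20 and rose for 1. The SNARE Bet1, a partner of Sec22b, fell from 8.12 ± 0.12 to 6.80 ± 0.14, 2.51-fold, and the tether Uso1 from 11.03 ± 0.05 to 9.86 ± 0.08. Scfd1, which assists the SNAREs of this step, differed by -0.87 ± 0.11.

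Of 10 measured transcription factors and their activators tied to secretory capacity, 5 fell and 1 rose. Bhlha15, a factor of professional secretory cells, fell from 11.52 ± 0.11 to 10.45 ± 0.06 (-1.08 ± 0.07, adjusted p = 6.43e-07). Creb3l1, an ER-bound CREB-like factor, differed by -0.90 ± 0.11, while its relative Creb3l4 rose (0.59 ± 0.17, adjusted p = 0.0138). Xbp1, the factor made active by splicing in the unfolded protein response, differed by a small amount (-0.23 ± 0.06, adjusted p = 0.00828). Leaving Xbp1 aside, the adjusted p-values of the falls named in these lists ran from 1.75e-07 for Uso1 to 0.000293 for Ergic2.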

How the data were processed

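Ventral prostate RNA was measured on Affymetrix arrays, 4 from wild-type and 4 from MT mice. The deposited values are log2 levels per probe set, made by the authors with RMA per the submitters' processing notes, whose version is not stated there. RMA estimates background and equalises the arrays' distributions, so a shift common to most genes would be removed. Array medians lay between 6.21 and 6.23. Of 22690 probe sets, 64 are controls, 1555 have no gene symbol and 691 have several, and the other 20380 were used. The number of arrays limits the precision, since arrays carry no read depth.

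A gene was represented by its probe set with the highest mean over all 8 arrays, giving 12393 genes. Groups came from the labels. limma 3.58.1 (R 4.3.3; lmFit and eBayes, default prior) compared MT with wild type, with Benjamini-Hochberg adjustment over all 12393 genes. All adjusted p-values in the text are from limma unless named as exact permutation p-values. The procedure was also run on simulated data with independent noise on each array and far fewer changed genes than were called here. That run does not cover the setting of these data. Motifs were searched and figures drawn with Python 3.11.15. The members and gene lists were chosen with earlier results of these data known.

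Every member could be named. Values on every array are given for up to 3 members of each complex with the largest changes past the threshold and no overlap between groups, and from each other list up to 3 genes with the largest changes are named (up to 2 for cell markers). Xbp1, named beside the motif, was chosen after its value was seen. Residuals of arrays with the same replicate number correlated at 0.10 to 0.18, and each array correlated best with its own number. The main fit and the comparison of related genes did not use this pairing, which entered only as the replicate block among the alternatives. Its basis is these correlations, as the labels say nothing of litters or batches.

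Alternatives were the mean over a gene's probe sets, unique-type probe sets alone, genes at or above the median level, array weights, another prior, median centring, quantile normalization, the replicate block, a stricter threshold and leaving out each array. Once the data had been seen, a fit lacking both MT array 2 and wild-type array 4 was added.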

Additional observations from a re-analysis of the deposited data

Results flagged for a closer look

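Of 126 sets of 4 arrays examined (63 genes in each group), 5 held an array that stood far from the other 3, 3.97%, and chance gives about 1 in 20. Sec63 read 8.10 on wild-type array 3, where the other wild-type arrays read 8.46 to 8.50, and it passed the threshold without that array. Sec11c, a catalytic subunit of signal peptidase, read 10.04 on MT array 3 against 10.34 to 10.35 on the other MT arrays. Kdelr2 read 9.42 on MT array 4 against 9.53 to 9.55, which lies on the side of the fall. Copz1 read 9.53 on wild-type array 2 against 9.44 to 9.45, and Trappc2l read 9.16 on the same array against 9.26 to 9.27.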

How the results depend on the processing

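Across the refits at an adjusted p of 0.05, 39 of the 42 falls, 2 of the 4 rises and 10 of the 17 genes that did not pass kept their call, and 38 of those 39 falls also passed at an adjusted p under 0.01 (Trappc13 did not, at 0.0108), while the members lower numbered 40 to 44 of 63 when each array was left out. The members' median difference, -0.45, was -0.38 as the mean over probe sets, -0.49 with unique-type probe sets (50 members), -0.51 for genes at or above the median level, -0.48 without wild-type array 4 and MT array 2, and -0.48 to -0.41 with each array left out. The members higher, 4, were 2 for genes at or above the median level, 2 at an adjusted p under 0.01, 2 without those 2 arrays, and 2 to 4 with each array left out. With the replicate block, 44 members were lower and 3 higher, and Sec63, Sec16b and Sec22a changed call. The paralog pairs past the threshold, 0, were 15 of 18 as the mean over probe sets, 7 of 9 with unique-type probe sets, and 0 to 11 with each array left out. No pair could pass alone at the smallest p, so these counts follow how many pairs reached it together. Sign changes within replicate pairs (replicate block) cannot give an exact permutation p below 0.125 with 16 sign changes, so this fit with 0 pairs past the threshold says nothing of the pairs.

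Direction reversed for some members and pairs that did not pass. Trappc5 was -0.14 as the mean over probe sets and -0.40 with unique-type probe sets, and with each array left out Trappc12 ran from -0.061 to 0.020, Trappc4 from -0.032 to 0.073 and Sec61a2 from -0.026 to 0.11. As the mean over probe sets the pairs Copg1-Copg2, Tmed4-Tmed9 and Tmed5-Tmed7 gave -0.18, 0.33 and -0.33. With each array left out Tmed4-Tmed9 ran from -0.11 to 0.053 and Tmed5-Tmed7 from -0.036 to 0.071. The cause was not tested. Signal limits Tmed6 and Tmed11, which lay at the level of the controls. The same level was read by 1 probe set of Tmed4 and 1 of Tmed7 (means over the arrays 3.55 and 3.39). Both enter the mean over probe sets.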
